A study of Danio rerio with 6 samples.

Results

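Apolipoproteins are the protein parts of the particles that carry fat and cholesterol in blood. Of 10 apolipoprotein genes looked for by zebrafish symbol (case ignored) in a table of 30628 Ensembl genes, 9 had a row: apoa1a, apoa1b, apoa2, apoa4b.1, apobb.1, apoc1, apoc2, apoea and apoeb. No row carried the symbol apoba. A row with the human-style symbol APOB is described beside the 9 under that symbol and is not counted among them. RNA was sequenced from livers of zebrafish in 2 groups of 3 samples. The ATG5 group carried Tg(fabp10a:mCherry-T2A-LexPR;LexOP:ATG5WT), in which the promoter of the hepatocyte gene fabp10a drives a hormone-dependent activator. In the presence of the steroid mifepristone this activator switches on human ATG5, an autophagy gene. The WT group was wild type and received mifepristone too, and every sample is labelled 2 wpi. The series' design text calls the groups hepatocellular carcinoma and normal liver. No transgenic fish without the drug and no fish with the activator alone are compared here, so ATG5 and other differences between the lines cannot be told apart. The fishes' ages are not in the labels, nor is it said whether a sample is 1 animal or a pool, so p-values refer to the spread among these 6 samples alone, and that spread may be technical.

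Liver and gut make most apolipoproteins. ApoB is the structural protein of very low-density lipoprotein and chylomicrons and stays with its particle, while the A, C and E proteins are smaller and move between particles. ApoA-I and apoA-II are the main proteins of high-density lipoprotein (HDL). In mammals apoC-II activates lipoprotein lipase, apoC-I inhibits several steps of lipoprotein exchange and uptake, and apoE is a ligand of the low-density lipoprotein receptor family. Zebrafish carry several of these genes as pairs of paralogues, such as apoa1a with apoa1b and apoea with apoeb.

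The libraries held 33669057 to 44763325 estimated counts in ATG5 and 35151200 to 43864158 in WT. In ATG5 libraries 16.4% to 17.7% of counts belonged to the 10 most abundant genes, against 25.2% to 27.7% in WT libraries. TMM factors, which set most genes as equal between libraries, were 1.33 to 1.47 in ATG5 and 0.684 to 0.763 in WT. With library sizes only, the log2 folds of all genes moved up by a median of 0.94, so folds of the apolipoproteins are given on both scales. A fold with library sizes only is a fold of the share of total counts. The edgeR quasi-likelihood test covered 20366 genes, and with TMM scaling it called 30.6% of them (17.3% higher in ATG5, 13.2% lower) at an adjusted p under 0.05. On library sizes only it called 56.1% (53.3% higher, 2.84% lower), so that 94.9% of the calls were higher, against 56.7% with TMM scaling. Shares of counts are shares of reads and are not corrected for transcript length.

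The 9 genes together made up 8.80%, 7.85% and 8.28% of all estimated counts in the ATG5 livers (replicates 1 to 3, the order used throughout), against 13.3%, 14.3% and 14.7% in the WT livers. The mean share was 8.31% ± 0.476 in ATG5 and 14.1% ± 0.719 in WT (SD, n = 3 each), 1.70-fold higher in WT. All 3 ATG5 libraries lay below all 3 WT libraries, and the exact two-sided permutation test gave p = 0.1, the smallest that 3 against 3 allows. In whole liver, fewer cells of a type and less RNA per cell cannot be told apart. With APOB added, a sum chosen after seeing the data, the shares were 8.55% ± 0.483 in ATG5 and 14.5% ± 0.750 in WT. A total of 4 genes, apoa1b, apoa2, apobb.1 and apoc1, made up most of this, with 7.84% ± 0.607 of all counts in ATG5 and 13.5% ± 0.647 in WT. Their ranks by count were 1 to 22 in ATG5 libraries and 1 to 11 in WT libraries.

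**Figure D1:**
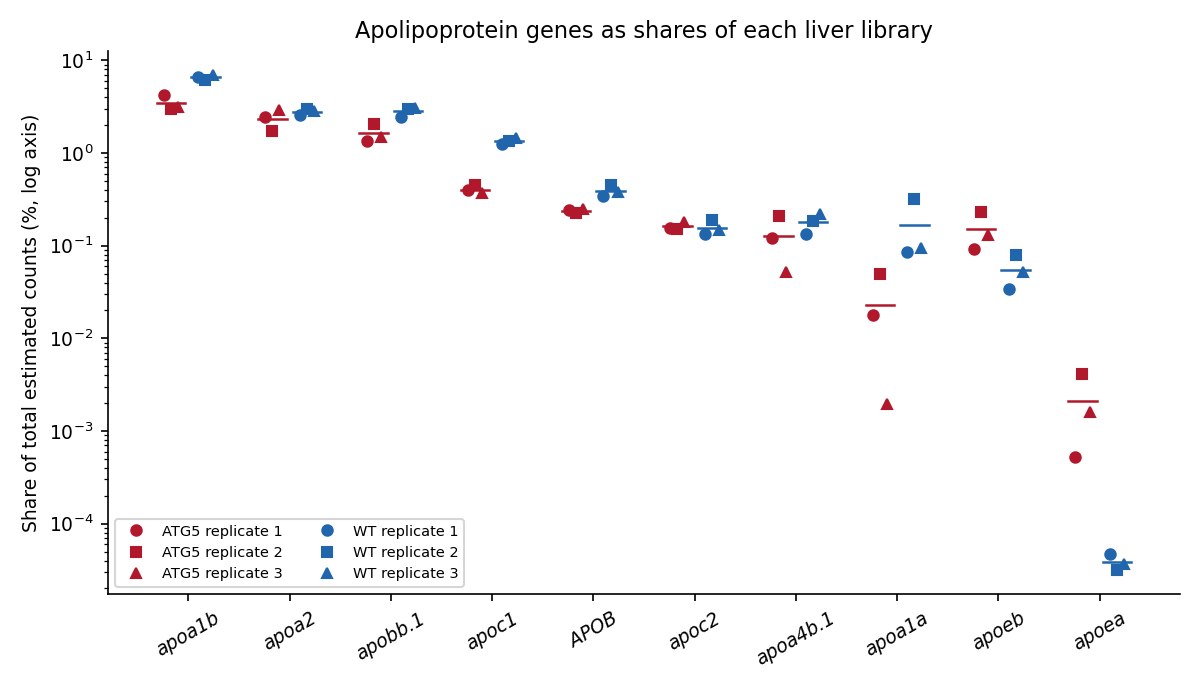
Share of total estimated counts (%, log axis) of the 9 apolipoprotein genes and APOB in each library, ATG5 in red left of WT in blue, with marker shapes for replicates and lines for group means. apoa1b, apobb.1, apoc1, APOB and apoa1a are lower in all ATG5 libraries than in all WT libraries, apoeb and apoea are higher, and apoa2, apoc2 and apoa4b.1 overlap.

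With TMM scaling 6 of the 9 genes were lower in ATG5 (apoa1a, apoa1b, apoa2, apobb.1, apoc1 and apoc2), 1 was higher (apoea), and 2 did not pass (apoa4b.1 and apoeb). Over all genes tested 30.6% were called (13.2% lower, 17.3% higher). Their median log2 fold was -1.46, against 0.03 over all genes tested. On library sizes only, 3 were lower (apoa1b, apobb.1 and apoc1) and 2 higher (apoea and apoeb), beside 2.84% lower and 53.3% higher (56.1% in all) over all genes, and the median was -0.49, against 0.97 over all genes. The number of lower genes was 3 with TMM scaling without ATG5 replicate 1, or without WT replicate 1, 2 or 3, and 5 without ATG5 replicate 2 or 3. Groups did not overlap in TMM-normalised CPM, counts scaled to a common library size, for 8 of the 9 genes, where 49.3% of all tested genes did not. In shares of total counts they did not overlap for 6 of the 9, where the background was 66.4%.

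**Figure D2:**
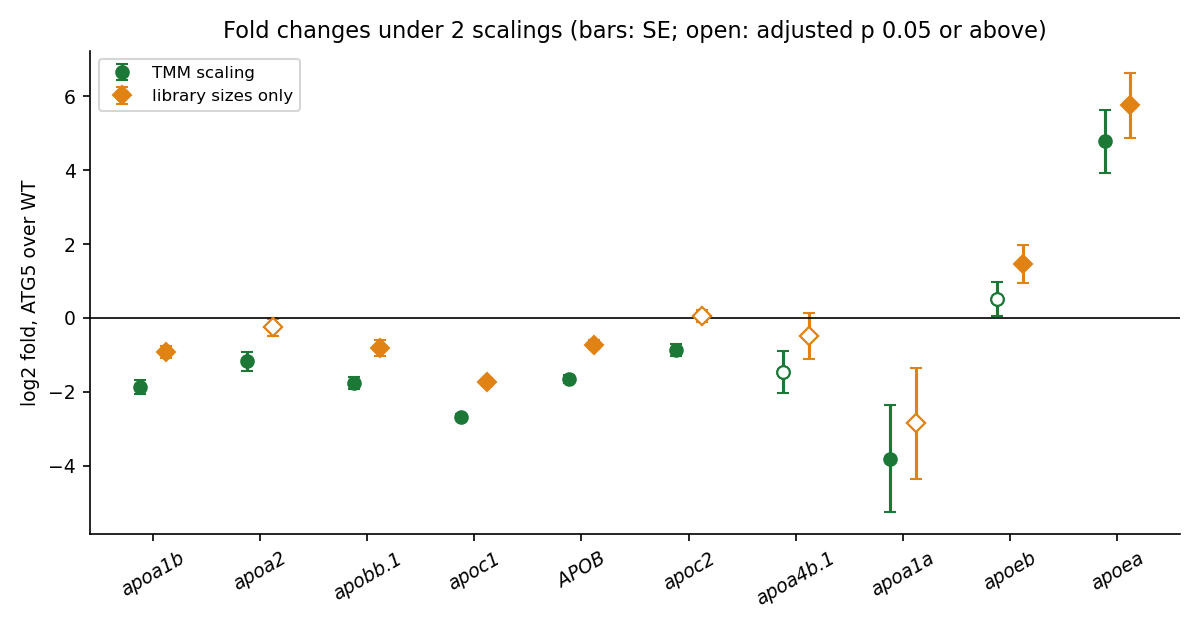
log2 fold of ATG5 over WT for each gene with TMM scaling (green) and with library sizes only (orange); bars are standard errors (n = 3 per group) and open symbols did not pass the test. apoc1, apoa1b, apobb.1 and APOB are below 0 and filled on both scales, apoea is above 0 on both, and apoc2 lies at -0.87 on one and 0.06 on the other.

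Among the HDL genes, apoa1b (ENSDARG00000101324) held more counts than any other gene in 5 of the 6 libraries and was second in the remaining ATG5 library. It took 4.22%, 3.00% and 3.16% of the counts in ATG5, against 6.63%, 6.17% and 6.87% in WT. The lowest WT library lay well above the highest ATG5 library. Its log2 fold was -1.86 ± 0.20 (SE, n = 3 per group; edgeR adjusted p = 0.00851), while library sizes alone gave -0.92 ± 0.16 (0.0165). It passed under all 17 other settings tried.

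Its paralogue apoa1a (ENSDARG00000012076) was far scarcer and varied far more between livers. The share was 0.0178%, 0.0495% and 0.00196% in ATG5, against 0.0856%, 0.319% and 0.0954% in WT. In CPM the highest ATG5 library was 22.9 times the lowest, and in WT 3.34 times. The groups did not overlap, replicate 2 being the highest of both. The log2 fold was -3.81 ± 1.45 (edgeR adjusted p = 0.0479), and it did not pass with library sizes only (-2.85 ± 1.50, adjusted p = 0.0675). Leaving out ATG5 replicate 1 (adjusted p = 0.134) or WT replicate 1 (0.0830), 2 (0.113) or 3 (0.0778) also ended the call. The fold was -4.95 without ATG5 replicate 2 and -3.02 without WT replicate 2. The ratio of apoa1b to apoa1a counts, which does not depend on scaling, was 237, 60.7 and 1609 in ATG5 and 77.5, 19.3 and 72.0 in WT. These ranges overlapped, and the log2 ratio differed by 2.58 ± 1.52 (SE; exact permutation p = 0.3, adjusted over 4 pairs 0.4). That difference was 1.33 without ATG5 replicate 3 and 3.70 without ATG5 replicate 2. Neither gene had a whole-number value (within 1e-06) in any of the 6 libraries, so some reads were divided with other genes.

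The second HDL protein gene, apoa2 (ENSDARG00000015866), was called with TMM scaling only. It took 2.46%, 1.72% and 2.89% of counts in ATG5, against 2.59%, 2.99% and 2.81% in WT, and the groups overlapped: ATG5 replicate 3 lay within the WT range. The log2 fold was -1.18 ± 0.26 with TMM scaling (edgeR adjusted p = 0.036) and -0.25 ± 0.23 with library sizes only (0.441). The TMM call was lost when any 1 of the 6 libraries was left out, each of ATG5 1 to 3 and WT 1 to 3 in turn, with adjusted p from 0.0544 to 0.108. WT libraries hardly differed (coefficient of variation 1.90% in CPM), whereas it was 29.4% in ATG5.

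For apoa4b.1 (ENSDARG00000040298), one of the zebrafish genes for apoA-IV, known from the gut as well as the liver, the share was 0.120%, 0.211% and 0.0523% in ATG5, against 0.135%, 0.186% and 0.218% in WT. ATG5 replicate 2 lay within the WT range. The log2 fold was -1.46 ± 0.57 (edgeR adjusted p = 0.0619), so the gene did not pass. Without ATG5 replicate 2 it was -1.97 (adjusted p = 0.0337), and DESeq2 gave an adjusted p of 0.00497. On library sizes alone the fold was -0.49 ± 0.62 (adjusted p = 0.424). None of the apoa4b.1 values in the 6 libraries was a whole number, so some of its reads were divided with other genes.

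The structural gene apobb.1 (ENSDARG00000022767) fell. Its share was 1.34%, 2.04% and 1.50% in ATG5, against 2.46%, 3.00% and 3.09% in WT, without overlap. Its log2 fold was -1.76 ± 0.16 (edgeR adjusted p = 0.00675), while library sizes alone gave -0.81 ± 0.21 (0.0321). The APOB row (ENSDARG00000042780) fell too. It took 0.240%, 0.225% and 0.248% in ATG5 and 0.343%, 0.452% and 0.382% in WT. Its log2 fold was -1.66 ± 0.11 (edgeR adjusted p = 0.00327), and -0.72 ± 0.12 with library sizes only (0.0185). The balance between these genes did not differ beyond the spread between libraries. The log2 ratio of APOB to apobb.1 was -2.75 ± 0.377 in ATG5 and -2.86 ± 0.144 in WT (SD, n = 3 each), with a difference of 0.11 ± 0.23 (SE; exact permutation p = 0.7, adjusted 0.7). With 3 samples a group this does not show that the ratio was equal. Both rows held whole-number values in all 6 libraries.

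The C genes moved unequally. For apoc1 (ENSDARG00000092170) the share was 0.394%, 0.448% and 0.366% in ATG5, against 1.25%, 1.34% and 1.45% in WT. The replicates of each group lay close together, and the groups were far apart. Its log2 fold was -2.69 ± 0.07 (edgeR adjusted p = 0.00137), a level 6.44-fold higher in WT, and -1.74 ± 0.11 with library sizes only (0.00101). It had the smallest p of the 9 genes, and it passed under all 17 other settings. For apoc2 (ENSDARG00000092155), the lipase cofactor gene, the share was 0.156%, 0.152% and 0.182% in ATG5, against 0.134%, 0.188% and 0.146% in WT. All 3 ATG5 values lay inside the WT range. With TMM scaling the log2 fold was -0.87 ± 0.15 (edgeR adjusted p = 0.0239), which turned to 0.06 ± 0.17 with library sizes only (0.816). The TMM call ended on leaving out ATG5 replicate 1 (adjusted p = 0.0820) or 2 (0.0579), or WT replicate 1 (0.0601), 2 (0.0645) or 3 (0.0512). None of the apoc2 values in the 6 libraries was a whole number, so some of its reads were divided with other genes. All apoc1 values were whole. The ratio of apoc2 to apoc1 counts was 0.395, 0.339 and 0.496 in ATG5 and 0.108, 0.141 and 0.101 in WT. These did not overlap, and the log2 ratio was higher in ATG5 by 1.81 ± 0.22 (SE; exact permutation p = 0.1, the smallest possible, adjusted over 4 pairs 0.2).

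The E genes were higher in share in every ATG5 library than in any WT library. Over all tested genes, 66.4% did not overlap in share. With library sizes only 53.3% were called higher, and the median log2 fold was 0.97. For apoeb (ENSDARG00000040295), widely used in zebrafish as a marker of microglia, the brain's macrophages, the share was 0.0930%, 0.228% and 0.131% in ATG5, against 0.0340%, 0.0785% and 0.0521% in WT. The lowest ATG5 value was close to the highest WT value. By library sizes alone the log2 fold was 1.46 ± 0.51 (edgeR adjusted p = 0.0282). With TMM scaling the groups overlapped, at 683, 1554 and 984 CPM in ATG5 and 497, 1030.1 and 727 CPM in WT, and the gene did not pass (log2 fold 0.52 ± 0.46, adjusted p = 0.366). Its paralogue apoea (ENSDARG00000102004) had 205, 1401 and 716 estimated counts in ATG5, against 17, 14 and 13 in WT. The lowest ATG5 library lay above every WT library on either scale. This was 14.7 ± 12.5 CPM in ATG5 and 0.538 ± 0.132 CPM in WT (SD, n = 3 each). On the log2 scale the fold was 4.78 ± 0.85 (edgeR adjusted p = 0.00763), and 5.76 ± 0.88 with library sizes only (0.00218). Without ATG5 replicate 2, the highest library, the TMM fold was 3.87 (adjusted p = 0.0126). It did not pass with limma-voom (adjusted p = 0.0967). With the stricter filter it was not tested. Counts this low give its WT value a wide counting error. Whole-number values were found for apoea in 4 of the 6 libraries and for apoeb in all 6. The ratio of apoeb to apoea counts was 178, 54.8 and 81.9 in ATG5 and 709, 2375 and 1358 in WT, without overlap. The log2 ratio of apoea to apoeb was higher in ATG5 by 3.83 ± 0.71 (SE; exact permutation p = 0.1, the smallest possible, adjusted 0.2).

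The make-up of the apolipoprotein counts does not depend on the scaling of the libraries. Within the summed counts of the 9 genes, apoc1 made up 4.87% ± 0.723 in ATG5 and 9.52% ± 0.262 in WT (SD, n = 3 each). For apoa2 this was 28.2% ± 6.50 in ATG5 and 19.8% ± 0.985 in WT, and for apoeb 1.85% ± 0.952 in ATG5 and 0.386% ± 0.150 in WT. For apoc2 it was 1.97% ± 0.213 in ATG5 and 1.11% ± 0.184 in WT. The groups did not overlap for these 4 genes or for apoa1a and apoea, each with exact permutation p = 0.1, the smallest possible. They overlapped for apoa1b, apobb.1 and apoa4b.1. These are parts of a whole, so a fall in some genes raises the parts of the others. A larger part is therefore not a higher level. The apoa2 share of total counts was 2.36% ± 0.592 in ATG5 and 2.80% ± 0.198 in WT, with overlap. In shares of total counts 66.4% of all tested genes did not overlap, and no background was computed for shares within the 9 genes. apoa1b remained the largest part, at 41.4% ± 5.66 in ATG5 and 46.5% ± 3.29 in WT.

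**Figure D3:**
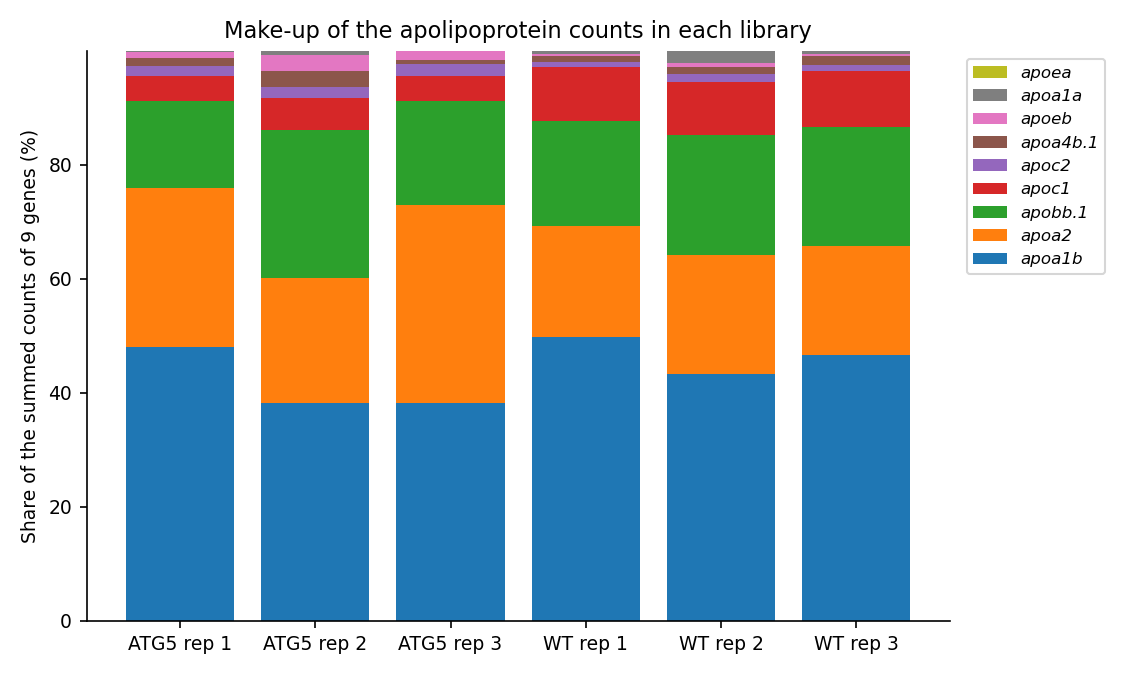
Stacked bars of each gene's share (%) of the summed counts of the 9 apolipoprotein genes, one bar per library, ATG5 left of WT. The apoc1 band is 4.42% to 5.70% in ATG5 libraries and 9.36% to 9.82% in WT libraries, and the apoa2 band is 21.9% to 34.9% in ATG5 and 19.1% to 21.0% in WT.

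Within the ATG5 group, replicate 2 was the highest ATG5 library in CPM for apoa1a, apoa4b.1, apobb.1, apoc1, apoea and apoeb, and the lowest for apoa1b, apoa2 and apoc2. It stood apart for 2 further apolipoprotein genes known from the gut. apoa4b.2 had 31.8, 309 and 43.9 CPM in ATG5 replicates 1 to 3, against 49.0, 61.8 and 90.5 CPM in WT, and apoa4a had 1.45, 22.5 and 3.56 CPM in ATG5 against 1.04, 0 and 3.29 CPM in WT. The enterocyte gene FABP2 had 4.396, 0.324 and 10.7 CPM in ATG5, lowest in replicate 2, against 0.520, 1.44 and 0.556 CPM in WT. Enterocyte rows did not rank replicate 2 alike. The RBP2 row ENSDARG00000093774 was also lowest there (53.9, 37.8 and 44.8 CPM in ATG5), while mep1a.1 was highest (0.279, 0.546 and 0.403 CPM). CDH17 (43.5, 48.1 and 96.3 CPM) and the other RBP2 row (288, 335 and 614 CPM) had it between. Of 8 enterocyte rows tested, 2 were higher and 2 lower in ATG5 (background 17.3% and 13.2%). By library sizes alone 5 were higher and 1 lower (background 53.3% and 2.84%). Their summed level was 397, 430 and 772 CPM in ATG5 and 2074, 2428 and 1934 CPM in WT, most of it from RBP2. The 2 lower rows were both RBP2, matched from the single name rbp2a by a RefSeq synonym. They averaged 1425 ± 331 and 703 ± 104 CPM in WT (SD). Of the 2 higher rows, mep1a.1 had 0, 0.0897 and 0.0397 CPM in WT. It could enter the test only through ATG5 libraries, so a lower call was hardly possible. Its TMM call ended with no filter (edgeR adjusted p = 0.0679) and with the replicate number as a block (0.0704). It also ended without ATG5 replicate 1 (0.0726), 2 (0.106) or 3 (0.0928), or WT replicate 1 (0.0739) or 3 (0.107). Whether RBP2 reads came from enterocytes was not tested, so the sum is no measure of enterocyte content. FABP6 was at 0 in every library. Per-library coefficients of variation in ATG5 ran from 5.24% for apoc1 to 101% for apoa1a.

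Several of these genes are neighbours. In the RefSeq annotation (GRCz12tu, used here for gene order only) apoa4b.1, apoa4b.3, apoa4b.2, apoeb, apoc1, apoc4, apoa2 and apoc2 lie in this order within a run of 10 coding genes, and apoea lies next to apoa4a elsewhere. Of the 8 apolipoprotein genes of the run, 4 were lower with TMM scaling and none higher, beside 13.2% lower and 17.3% higher over all genes. With library sizes only apoc1 was lower and apoeb higher, beside 2.84% lower and 53.3% higher over all genes. The adjacent genes apoeb and apoc1 thus had log2 folds of 0.52 ± 0.46 and -2.69 ± 0.07. Across the run apoc4, next to apoc1, had a log2 fold of -1.35 ± 0.11 (edgeR adjusted p = 0.00326), and -0.40 with library sizes only (0.0801).

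**Figure D4:**
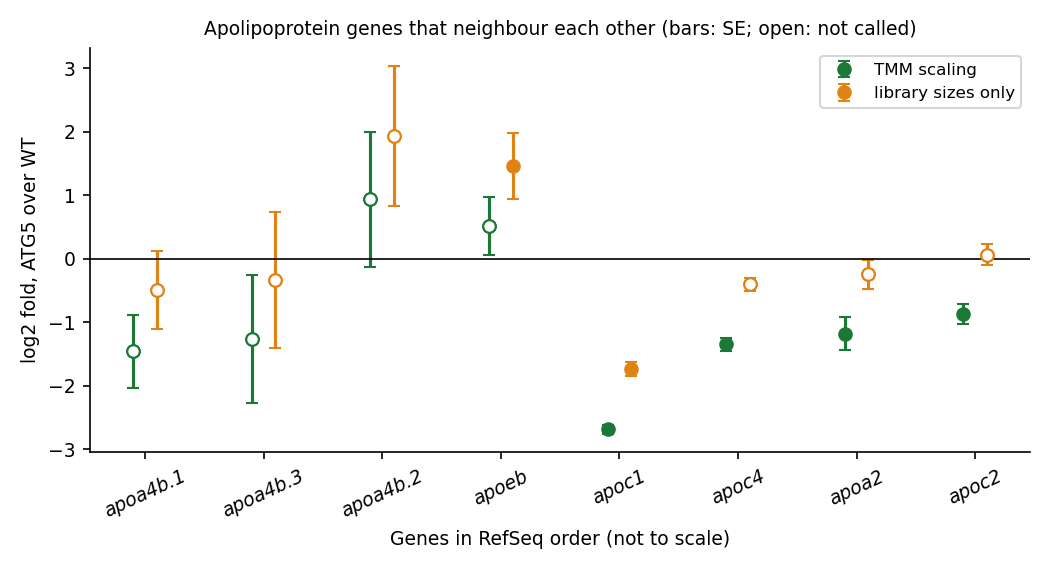
log2 fold of ATG5 over WT for 8 neighbouring apolipoprotein genes in RefSeq order, with TMM scaling (green) and library sizes only (orange); bars are standard errors (n = 3 per group) and open symbols did not pass. apoc1 is the lowest on both scales at -2.69 and -1.74, and its neighbour apoeb lies above 0 at 0.52 and 1.46.

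Among the other apolipoprotein genes, 3 of 9 tested fell and none rose with TMM scaling (background 13.2% lower, 17.3% higher). Their median log2 fold was -1.003, against 0.03 over all genes. By library sizes alone 1 was lower and none higher (background 2.84% lower, 53.3% higher). The median on that scale was -0.02, against 0.97 over all genes. apof, whose human protein inhibits cholesteryl ester transfer, had 20.7, 27.7 and 4.75 CPM in ATG5, against 264, 158 and 172 CPM in WT. The fitted log2 fold was -3.48 ± 0.82 (edgeR adjusted p = 0.0113), and -2.50 with library sizes only (0.0158). apom, the HDL carrier of the lipid sphingosine-1-phosphate in mammals, averaged 556 ± 108 CPM in ATG5 and 1168 ± 205 CPM in WT (SD, n = 3 each). The log2 fold was -1.07 ± 0.23 (adjusted p = 0.0186) and -0.13 with library sizes only (0.636). The apom call was also lost with the replicate number as a block (adjusted p = 0.0540) and without ATG5 replicate 3 (adjusted p = 0.0587), WT replicate 1 (0.0653) or WT replicate 2 (0.0536).

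Genes that load and export lipoproteins were partly lower relative to TMM scaling. Of 21 rows for assembly and secretion, 9 fell and 1 rose (median log2 fold -0.66), beside 13.2% lower and 17.3% higher over all genes. By library sizes alone 9 were higher and none lower, beside 53.3% higher and 2.84% lower over all genes. The median on that scale was 0.29, against 0.97 over all genes. cideb, which helps load lipid onto apoB particles, averaged 54.7 ± 6.81 CPM in ATG5 and 132 ± 3.30 CPM in WT, and its log2 fold was -1.27 ± 0.11 (edgeR adjusted p = 0.00288) and -0.33 with library sizes only (0.129). The export receptor gene mia2 had a log2 fold of -0.88 ± 0.08 (adjusted p = 0.00742), which turned to 0.07 with library sizes only (0.731). MTTP, the transfer protein that adds lipid to nascent apoB, did not pass with TMM scaling, at 220.4 ± 33.98 CPM in ATG5 and 276 ± 7.87 CPM in WT (log2 fold -0.32 ± 0.13, adjusted p = 0.198). It was higher, at 0.61, by library sizes alone (0.0220).

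The enzymes that act on circulating lipoproteins included large falls. Of 15 rows for lipolysis and remodelling, 6 fell and 1 rose (median -0.23), beside 13.2% lower and 17.3% higher over all genes. With library sizes only 5 were lower and 2 higher, beside 2.84% lower and 53.3% higher over all genes. The tested row of LPL, lipoprotein lipase, had 179, 169 and 177 CPM in ATG5, against 1334, 555 and 932 CPM in WT, and its log2 fold was -2.43 ± 0.37 (edgeR adjusted p = 0.00437) and -1.46 with library sizes only (0.00653). The other row named LPL was not tested. LIPG, endothelial lipase, stood at 1.79 ± 0.281 CPM in ATG5 and 61.4 ± 38.5 CPM in WT, a log2 fold of -5.10 ± 0.76 (adjusted p = 0.00356). LIPC, hepatic lipase, and CETP, the cholesteryl ester transfer protein, had log2 folds of -2.62 ± 0.46 and -2.94 ± 0.54 (adjusted p = 0.00659 and 0.00717). LCAT, the enzyme that apoA-I activates, did not pass, at 95.1 ± 38.5 CPM in ATG5 and 78.7 ± 39.1 CPM in WT (adjusted p = 0.666).

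Of 14 rows tested for receptors and their regulators, 3 fell and none rose with TMM scaling, beside 13.2% lower and 17.3% higher over all genes. Their median log2 fold was 0.42, against 0.03 over all genes. With library sizes only 2 were lower and 8 higher, beside 2.84% lower and 53.3% higher over all genes. The low-density lipoprotein receptor gene ldlra had 90.7, 79.1 and 81.8 CPM in ATG5, against 1217, 827 and 452 CPM in WT, and its log2 fold was -3.31 ± 0.42 (edgeR adjusted p = 0.00274). VLDLR, its relative, had a log2 fold of -1.85 ± 0.49 (adjusted p = 0.0206), and did not pass with library sizes only (-0.90, 0.132). Its call also ended without ATG5 replicate 1 (adjusted p = 0.0583) or 3 (0.0658), or WT replicate 2 (0.0526) or 3 (0.0599). SCARB1, the HDL receptor, did not pass with TMM scaling (0.52 ± 0.07, adjusted p = 0.0573), and was higher at 1.46 with library sizes only (0.00127). Among 8 rows for sterol efflux 3 rose and 2 fell with TMM scaling (background 17.3% higher, 13.2% lower). By library sizes alone 3 were higher and none lower (background 53.3% higher, 2.84% lower). ABCA1 and its paralogue abca1b, transporters that load cholesterol onto apoA-I, went in opposite directions with TMM scaling. ABCA1 averaged 102.8 ± 20.1 CPM in ATG5 and 299.9 ± 42.6 CPM in WT (log2 fold -1.55 ± 0.20, adjusted p = 0.00419; -0.60 with library sizes only, 0.0771). abca1b averaged 29.9 ± 4.17 CPM in ATG5 and 2.17 ± 1.05 CPM in WT (3.78 ± 0.43, adjusted p = 0.00192; 4.74 with library sizes only, 0.000429).

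Transcription factors known to act on apolipoprotein genes were mostly lower relative to TMM scaling. Of 29 rows tested 15 fell and 4 rose (median -0.51), beside 13.2% lower and 17.3% higher over all genes. With library sizes only 3 were lower and 8 higher, beside 2.84% lower and 53.3% higher over all genes. The median on that scale was 0.43, against 0.97 over all genes. HNF4A, the nuclear receptor that controls many hepatocyte genes, had 83.1, 90.3 and 105 CPM in ATG5, against 281, 229.6 and 193 CPM in WT. Its log2 fold was -1.34 ± 0.19 (edgeR adjusted p = 0.00539), and -0.39 with library sizes only (0.124). FOXA2 and PROX1, liver factors, had log2 folds of -1.64 ± 0.15 and -1.47 ± 0.16 (adjusted p = 0.00208 and 0.00329), and PPARA, the fatty acid sensor, one of -3.03 ± 0.47 (0.00439). These 3 were also lower with library sizes only (-0.68, -0.53 and -2.08, adjusted p = 0.0163, 0.0314 and 0.00794). The list held a second gene of the fatty acid sensor, pparaa. It was more abundant in WT, at 43.8 ± 2.76 CPM, against 11.5 ± 3.92 CPM for PPARA (SD). Its log2 fold was -1.58 ± 0.32 (adjusted p = 0.00871), and it did not pass with library sizes only (-0.63, 0.106). The 4 rows that rose with TMM scaling were ONECUT1, NR0B2, NR2F1 and a FOXO1 row. Their log2 folds were 1.95 ± 0.47, 1.37 ± 0.34, 1.02 ± 0.27 and 1.15 ± 0.23. The other FOXO1 row fell (-1.04 ± 0.28).

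**Figure D5:**
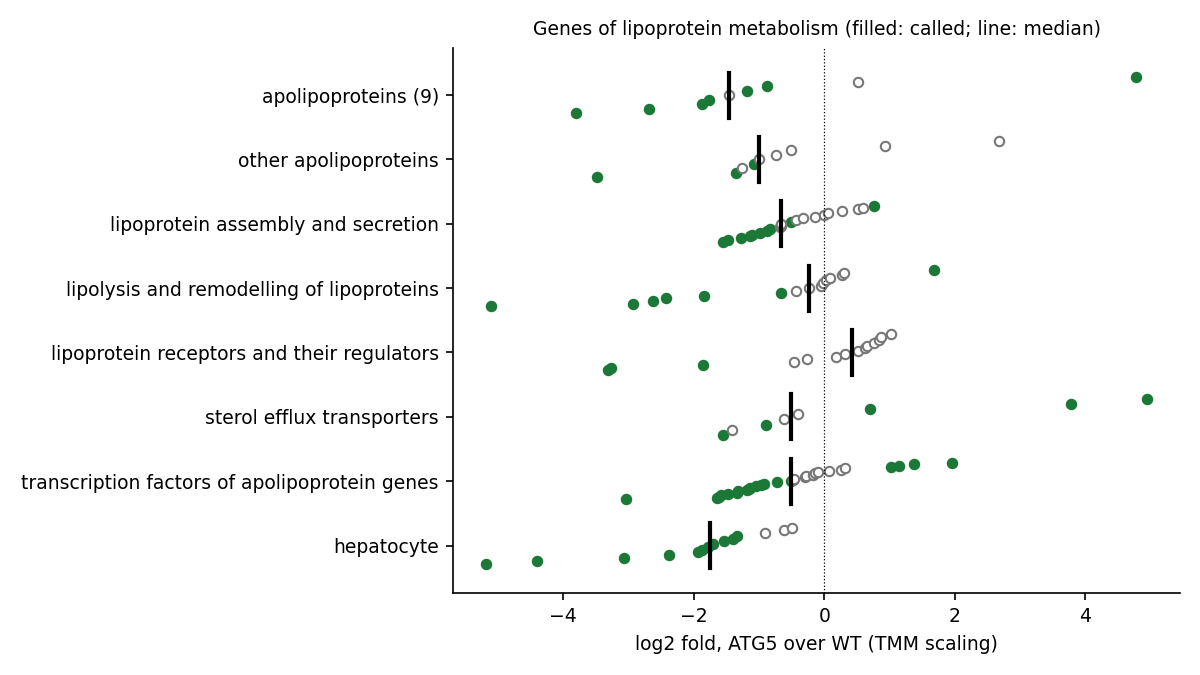
log2 fold of ATG5 over WT (TMM scaling) for every tested gene of the apolipoproteins, 6 lists of lipoprotein metabolism and the hepatocyte markers; filled points passed the test and lines are medians. The apolipoprotein median is -1.46, the hepatocyte marker median -1.74, and the receptor median 0.42.

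Markers of cell types moved beside these genes. Of 14 hepatocyte rows tested, 11 fell and none rose (median log2 fold -1.74, against -1.46 for the 9 apolipoproteins; -0.80 with library sizes only, where 9 were lower). Their summed level was 38222 to 57899.9 CPM in ATG5 and 117679 to 160609.9 CPM in WT, and none was at 0 in a whole group. tfa, the transferrin gene, averaged 24579 ± 5923 CPM in ATG5 and 65056 ± 10792 CPM in WT. The log2 fold of tfa was -1.40 ± 0.25 with TMM scaling (edgeR adjusted p = 0.0228). With library sizes only tfa did not pass (-0.47, 0.156). fabp10a, whose promoter the transgene uses, averaged 6236 ± 2112 CPM in ATG5 and 11701 ± 1916 CPM in WT and did not pass (edgeR adjusted p = 0.0764). Its log2 fold was -0.91 ± 0.30, and 0.04 with library sizes only (0.921). Of 19 macrophage rows tested, 16 rose and 1 fell, with summed levels of 1793 to 2111 CPM in ATG5 and 209 to 296 CPM in WT. marco, a macrophage scavenger receptor, averaged 238 ± 74.5 CPM in ATG5 and 8.47 ± 1.94 CPM in WT. Of other immune markers, 6 of 7 T cell and 3 of 6 neutrophil rows rose and none fell. The T cell rows ZAP70 and cd4-1 averaged only 0.305 and 0.285 CPM in WT, and THEMIS and lck were at 0.280 CPM each in WT replicate 1. These T cell rows could enter the test only with ATG5 libraries, so lower calls were hardly possible for them. The 2 B cell rows tested, cd79a and cd37, were called higher on both scales. They averaged 0.847 and 0.926 CPM in ATG5 but 0.0632 and 0.0663 CPM in WT, near a floor of 3 counts. With so few WT counts they could enter the test only through ATG5 libraries, so a lower call was hardly possible. PAX5 and cd79b were not tested. Biliary rows rose in 5 of 9, with sums of 2066 to 3384 CPM in ATG5 and 780.04 to 1102 CPM in WT, while endothelial rows split, with 1 of 5 higher and 1 lower. By library sizes alone 7 of 9 biliary and 4 of 5 endothelial rows were higher and none lower. So were 7 of 7 T cell rows, with the limit given above, and 4 of 6 neutrophil rows. Over all genes tested 53.3% were higher and 2.84% lower on that scale, and 17.3% higher and 13.2% lower with TMM scaling. The call of the B cell gene cd37 ended when any 1 of the 6 libraries was left out, with adjusted p from 0.0574 to 0.115, and that of cd79a without ATG5 replicate 1 (0.0616) or WT replicate 2 (0.0726) or 3 (0.0743). On either scale no erythrocyte (7) or pancreas (11) row passed. Pancreas rows summed to 955, 871 and 702 CPM in ATG5 and varied widely in WT, at 138, 2292 and 4670 CPM. Without WT replicate 1 the pancreas genes prss1 and prss59.1 were lower in ATG5 (log2 folds -2.09 and -2.12, edgeR adjusted p = 0.0253 and 0.0218). The part of hepatocyte and macrophage numbers in the apolipoprotein values was not tested.

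By the mean of their centred log2 CPM, the 9 genes stood at -0.67, -0.08 and -0.88 in ATG5, against 0.39, 0.69 and 0.55 in WT. Among 10159 other named genes with a mean of at least 5 CPM, those most like this profile over the 6 libraries included UBR2, LONP2, rock2bl and B4GALNT3. Their Pearson correlations were 0.997, 0.996, 0.995 and 0.994. These are descriptions over 6 libraries that share the group difference. Genes with large swings weigh most in the mean, such as apoa1a (log2 fold -3.81) and apoea (4.78), which went opposite ways. For apoa1b, apoa2 and apoc2 replicate 2 was the lowest ATG5 library, so the profile does not describe each gene. B4GALNT3 did not pass the test (-0.48, edgeR adjusted p = 0.0808). UBR2, a ubiquitin ligase gene, averaged 43.1 ± 12.5 CPM in ATG5 and 86.8 ± 7.01 CPM in WT, and LONP2, which encodes a peroxisomal protease, 71.9 ± 14.8 CPM in ATG5 and 119 ± 12.9 CPM in WT.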

How the data were processed

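Per the labels' protocols, liver RNA was extracted with TRIzol and libraries were made with a TruSeq kit that keeps strand. The authors deposited one table of estimated counts, a value per Ensembl gene. Tools named in the submitters' processing notes, with no roles, are kallisto 0.45.0 and sleuth 0.30.0 beside FastQC 0.11.5, and the build is GRCz11. How strand was set in counting is not given, so reads of a gene and an overlapping antisense gene cannot be separated, and reads of near-identical paralogues may be split between them. Symbols were matched by Ensembl ID (77.1% of 30628 genes). Upper-case symbols are the table's own.

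Columns were matched to samples by description and groups came from titles. Estimated counts were rounded, filtered with filterByExpr, scaled with TMM factors and tested with edgeR 4.0.16 in R 4.3.3 (glmQLFit, glmQLFTest, group only, Benjamini-Hochberg over all 20366 genes at 0.05). Levels are TMM-normalised CPM. A floor of 3 counts is 0.0670 to 0.0891 CPM before TMM scaling and covers counting error only. Standard errors come from log2 CPM with a prior count of 2. Shares are percent of all estimated counts, and paralogue ratios carry a prior count of 0.5, both with two-sided exact permutation tests. No 2 libraries of a group agreed within sampling noise by chi-square over genes.

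The members and the 16 gene lists (211 names, 179 or 84.8% matched, some to several rows) were chosen with earlier results of these data known. The text names all members, and from each list up to 4 called genes by smallest p or, with no call, 2 by abundance, and the 5 genes most alike. A few genes that meet this rule are left unreported. MTTP, LIPC, CETP, LCAT, SCARB1, HNF4A, pparaa, ONECUT1, NR0B2, NR2F1, FOXO1, FABP2, FABP6, fabp10a, tfa, marco, apoa4a and apoa4b.2 were added after their values were seen. The steps were tested on simulated data. Alternatives were other factors and filters, DESeq2 1.42.0, limma 3.58.1 voom, robust dispersion, a replicate block, a threshold of 0.01 and leaving out each library. Figures used matplotlib 3.10.9.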

Additional observations from a re-analysis of the deposited data

How the results depend on the processing

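apoa1b, apobb.1 and apoc1 stayed lower and past the threshold under all 17 other settings (scalings, filters, tools, block, libraries left out). The scaling decided most else. With library sizes only, 10853 genes were higher and 578 lower, 3 members were lower and 2 higher, apoa1a (-2.85) and apoa2 (-0.25) lost their calls, apoc2 turned to 0.061, and apoeb passed at 1.46; mia2, hbaa1, alas2 and kdrl turned to 0.070, 0.28, 0.46 and 0.15. The stricter filter tested fewer genes (2135 higher, 1724 lower) and left out apoea, so 0 members were higher. At a threshold of 0.01 the counts were 1518 and 953, with 3 members lower. With no filter apoa1a was -3.79 (adjusted p = 0.0546) and apoa2 -1.16 (0.0747), and with robust dispersion apoa1a was -3.81 (0.0512). limma-voom called 0 members higher (apoea 4.34, adjusted p = 0.0967; its unadjusted p in edgeR was 0.000762) and apoa4b.1 at -1.62; DESeq2 called apoa4b.1 at -1.50. The cause was not tested where none is named.

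Leaving out 1 library at a time gave 2218 to 2791 genes higher, 1583 to 2071 lower, 3 to 5 members lower, and log2 folds of -4.95 to -3.02 for apoa1a, -1.40 to -0.97 for apoa2, -1.97 to -1.13 for apoa4b.1, -1.01 to -0.77 for apoc2 and 3.87 to 5.20 for apoea. Both counts over all genes moved by over 1.5 times without ATG5 replicate 1 (2312 higher, 1614 lower) or WT replicate 1 (2218 and 1583). The apoc2 share difference was 0.00664 percentage points. It ran from -0.00439 (without WT replicate 1) to 0.0226, also turning without ATG5 replicate 3 (-0.00262), and was -0.0210 with 50 abundant genes left out of the total. The difference in log2 ratio of APOB to apobb.1 ran from -0.028 (without ATG5 replicate 1) to 0.33, and that of apoa1b to apoa1a from 1.33 to 3.70. hbaa1 ran from -1.13 to 0.026 and alas2 from -0.88 to 0.31, both turning without WT replicate 2.

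With the replicate number as a block, 2253 genes were higher and 1636 lower, and apoa2 (-1.22, adjusted p = 0.0739), apoc2 (-0.87, 0.0774) and apom (-1.07, 0.0540) lost their calls. The labels do not say whether replicate numbers pair samples. Deviations of same-numbered libraries from their group means correlated at -0.04, -0.10 and 0.02. With 3 libraries a group these values cannot decide whether the samples were paired.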
